A study of Mus musculus with 9 samples.

Results

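The genes described here carry a zinc finger symbol on the array. A gene was included when its symbol began with Zfp, Zscan or Zbtb followed by a number, and 125 of the 8146 genes with a symbol did so. The rule used the symbol alone and no measured value, though the group was chosen with earlier results of these data known. The group held 13 Zbtb genes, 2 Zscan genes, 3 genes of the Zfp36 family and 107 other Zfp genes. The 125 genes were represented by 170 spotted cDNA clones, and clones of a gene were averaged on each array.

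Stroma was laser-microdissected from the prostates of male FVB mice hemizygous for the CR2-TAg transgene, a tumor model in which control sequences of the cryptidin-2 gene (Defcr2) drive SV40 TAg, a viral oncoprotein, in the neuroendocrine cells of the prostate. Invasive cancer stroma came from 6 mice aged 24 weeks, with lung and liver metastases, and PIN stroma came from 3 mice of 10 weeks of age bearing prostate intraepithelial neoplasia. All mice in both groups carry the transgene and no mouse without it was profiled. Since stage changes together with age, the 2 cannot be told apart. The paper also describes dissecting stroma up to a greater distance from the epithelium in invasive than in PIN sections. Stage and that distance cannot be told apart either. Values are log2 ratios of the sample (Cy5) over a pool of PIN stroma (Cy3), so that 0 is the level of the pool. The pool holds RNA of the PIN samples themselves.

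A zinc finger is a short protein loop folded around a zinc ion. In the classical C2H2 form, tandem fingers read the bases of DNA, and most such proteins act as transcription factors. Many carry a second domain that recruits partners: a KRAB domain binds the co-repressor Trim28, a BTB domain (the Zbtb genes) forms dimers and binds repressor complexes, and a SCAN domain (the Zscan genes) pairs such proteins with one another. The CCCH fingers of the Zfp36 family bind AU-rich elements in messenger RNA and speed its decay.

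Invasive and PIN stroma were compared to ask which zinc finger genes differ between the stages. Between invasive and PIN stroma, 6 of the 125 genes passed the test, whose threshold was an adjusted p under 0.15 as the study used. That is 4.80%, against 5.64% of the 8106 genes tested. Zfp36l2 and Zfp207 were higher in invasive stroma, 2 genes beside a background of 3.75% higher. Zfp106, Zfp612, Zfp830 and Zfp185 were lower, 4 genes beside a background of 1.89% lower. At an adjusted p under 0.05, 1 gene (Zfp106) passed, against 0.938% of all genes. The group was selected by name, and several of the 6 (Zfp106, Zfp185, Zfp207, Zfp36l2 and Zfp830) are known for roles other than binding DNA at promoters. They are therefore called zinc finger genes here rather than transcription factors.

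The median log2 difference, invasive minus PIN, was -0.03 for the zinc finger genes and 0.02 for all genes tested, with interquartile ranges of -0.25 to 0.22 and -0.20 to 0.26. The median size of the difference was 0.23 in both. Differences were positive for 54 zinc finger genes and negative for 71 (43.2% positive), against 4216 positive and 3890 negative over all genes (52.0% positive). At an unadjusted p under 0.05, 17 genes (13.6%) differed, 8 higher and 9 lower, against 15.0% of all genes. A difference over 2-fold was measured for 5 genes (4.00%), against 4.98% of all genes. The 119 genes that did not pass ranged from -0.82 for Zfp750 to 1.07 for Zbtb46, and 105 of them lay within 0.5 of 0 in either direction. The standard error of a difference had a median of 0.24 and ran from 0.17 to 0.41 over the 125 genes, and a gene that did not pass is not shown to be equal in the 2 stages.

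**Figure D1:**
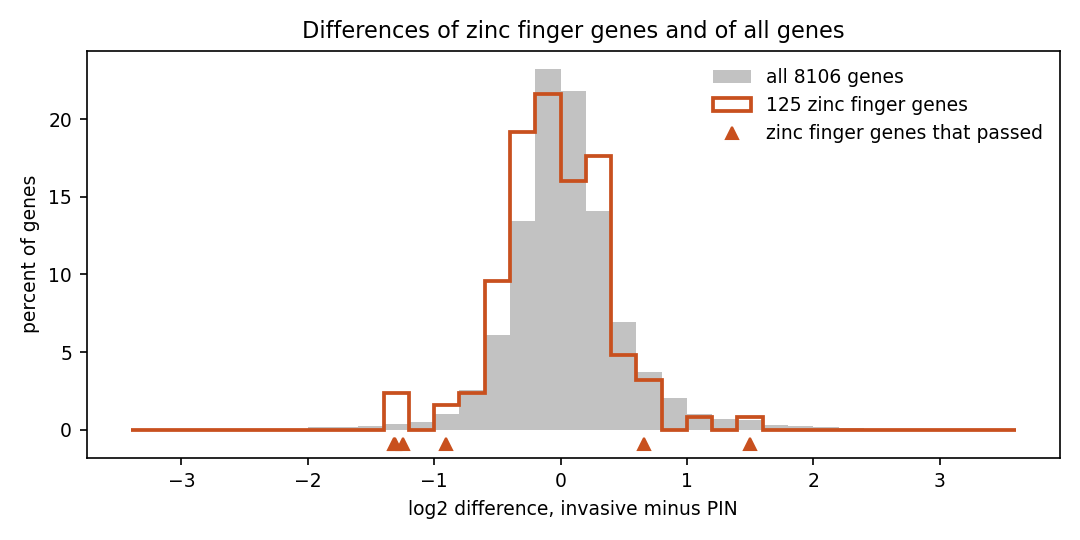
Histogram of the log2 difference, invasive minus PIN (horizontal axis), as percent of genes (vertical axis) for all 8106 genes tested in grey and the 125 zinc finger genes in outline. Triangles mark the 6 zinc finger genes that passed, 4 below 0 and 2 above, and the 2 distributions have medians of 0.02 and -0.03.

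Zfp106, which encodes an RNA-binding protein, had the smallest p of the group. Its log2 ratio in invasive stroma ran from -1.13 to -0.56 with a median of -0.70, and was 0.01, 0.27 and 0.21 on PIN arrays 2, 3 and 4. All 6 invasive arrays lay below all 3 PIN arrays. The difference was -0.91 ± 0.18 (SE), or 1.88-fold lower, with an adjusted p of 0.0450 by limma. It no longer passed without PIN array 2 (difference -0.98, adjusted p = 0.158) or PIN array 3 (difference -0.85, adjusted p = 0.177).

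Zfp612 encodes a C2H2 zinc finger protein. Its invasive values ran from -1.48 to -0.46 with a median of -0.91, and the PIN values were 0.96, 0.28 and -0.17. The groups again did not overlap, although the PIN arrays spread over more than 2-fold. The level was 2.47-fold lower in invasive stroma (difference -1.31 ± 0.29 (SE), adjusted p = 0.0565). Without PIN array 2 the adjusted p was 0.255, and without PIN array 3 it was 0.177.

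Zfp830, also known for roles in splicing and the response to DNA damage, had the most negative difference of the group. Invasive values ran from -1.92 to -1.0 with a median of -1.54, and the PIN values were 0.34, -1.31 and 0.38. PIN array 3 lay among the invasive arrays, and the other two PIN arrays lay above them. The difference was -1.32 ± 0.35 (SE), or 2.49-fold lower, with an adjusted p of 0.101. It did not pass without invasive array 2, 4 or 5 or PIN array 2 or 4 (adjusted p from 0.153 to 0.360). Without PIN array 3 the difference was -1.87.

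Zfp185 encodes a LIM domain protein of the actin cytoskeleton rather than a DNA-binding factor. Invasive values ran from -2.21 to -0.66 with a median of -2.04, and the PIN values were -0.99, -0.92 and 0.34. Invasive array 4 overlapped the PIN arrays, and the remaining invasive arrays lay below them. The level was 2.38-fold lower (difference -1.25 ± 0.38 (SE), adjusted p = 0.138). Without PIN array 4 the difference was -0.82 and no longer passed (adjusted p = 0.327). The call was also lost without invasive array 2, 5 or 6 or PIN array 2 or 3 (adjusted p from 0.220 to 0.252).

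Zfp207 (BuGZ), a microtubule-associated protein that loads Bub3 at kinetochores, was higher in invasive stroma. Its invasive values ran from 0.19 to 0.79 with a median of 0.60, and the PIN values were -0.15, -0.18 and -0.07. All 6 invasive arrays lay above the 3 PIN arrays. The difference was 0.66 ± 0.19 (SE), or 1.58-fold higher, with an adjusted p of 0.122. Its 2 clones gave differences of 0.72 and 0.60, and neither passed on its own. Zfp207 did not pass when any 1 of invasive arrays 2, 4, 5 and 6 or of the PIN arrays was left out (adjusted p from 0.173 to 0.341). The markers of the cell cycle were higher too, with 5 of 7 genes passing and a median log2 difference of 1.37, and the per-array median of that list ran from 0.50 to 2.31 on invasive arrays and from -0.24 to 0.28 on PIN arrays. Its part in the result for Zfp207 was not tested.

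**Figure D2:**
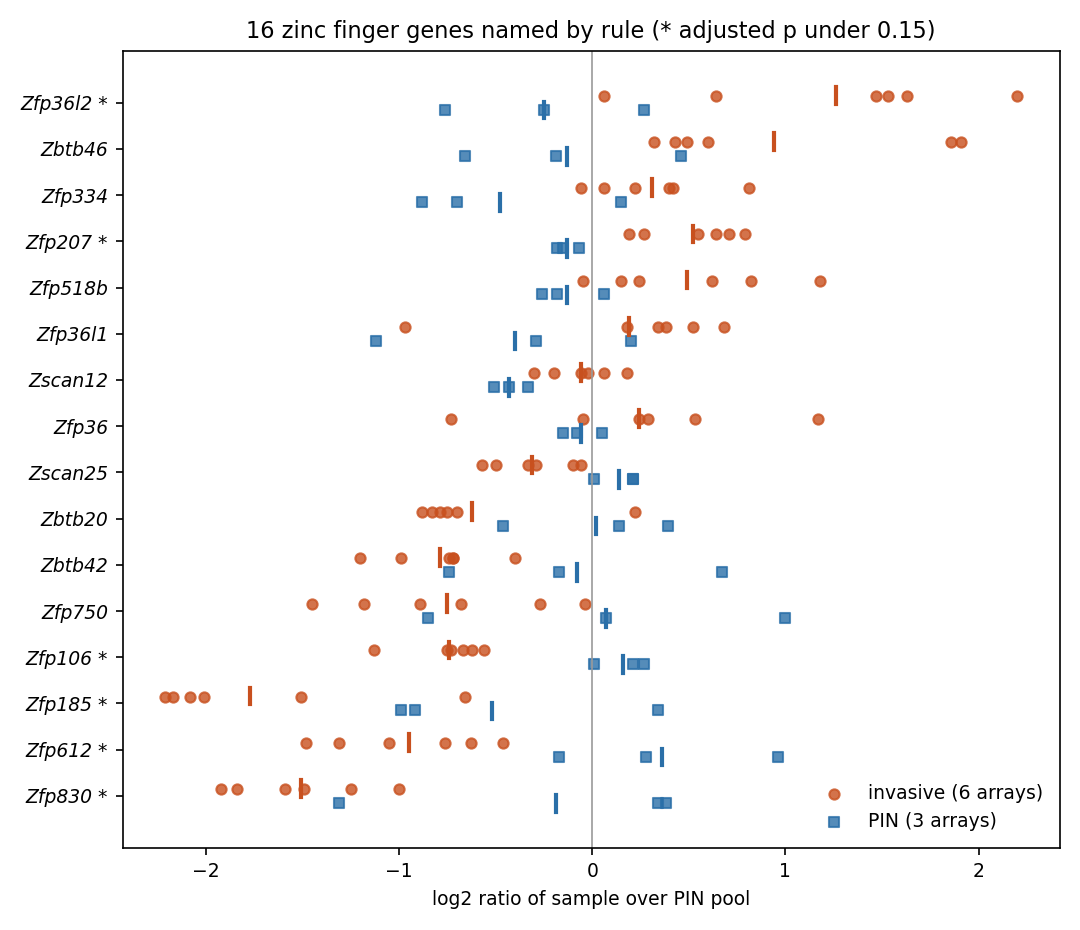
Values of 16 zinc finger genes on 6 invasive arrays (circles) and 3 PIN arrays (squares), as log2 ratio to the pool on the horizontal axis, with group means as vertical bars and an asterisk where the adjusted p was under 0.15. The invasive arrays of Zfp106, Zfp612 and Zfp207 lie apart from the PIN arrays, whereas those of Zfp830, Zfp185 and Zfp36l2 overlap them on 1 or more arrays.

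The 3 CCCH genes were measured together as the Zfp36 family. Zfp36l2, which promotes decay of AU-rich messages, had the largest increase of all 125 genes. Its log2 ratios were 0.64, 2.20, 0.06, 1.53, 1.63 and 1.47 on invasive arrays 1 to 6 and -0.25, 0.27 and -0.76 on PIN arrays 2, 3 and 4. Invasive array 3 fell within the PIN arrays, and the other five invasive arrays lay above them. The level was 2.84-fold higher (difference 1.50 ± 0.41 (SE), adjusted p = 0.105). The call was lost when any 1 of invasive arrays 2, 4, 5 and 6 or of the PIN arrays was left out (adjusted p from 0.171 to 0.303).

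Zfp36l1, its closest relative, had a difference of 0.59 ± 0.36 (SE) that did not pass (adjusted p = 0.493). Its values were 0.68, 0.52, -0.97, 0.38, 0.34 and 0.18 on invasive arrays 1 to 6, and -0.29, 0.20 and -1.12 on the PIN arrays. Invasive array 3 stood apart from the other invasive arrays, and without it Zfp36l1 passed (difference 0.83, adjusted p = 0.120). The difference was 0.89 without PIN array 3 and 0.24 without PIN array 4. Its 2 clones gave differences of 0.51 and 0.67. Zfp36 (tristetraprolin), an immediate early gene, had a difference of 0.30 ± 0.33 (SE), with invasive values from -0.73 to 1.17, PIN values from -0.15 to 0.05, and an adjusted p of 0.743. It was 0.12 without invasive array 4 and 0.49 without invasive array 3.

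Markers of macrophages and fibroblasts moved between the groups as well. All 4 macrophage markers tested were higher in invasive stroma, with per-array medians from 0.80 to 2.98 on invasive and from -0.43 to 0.48 on PIN arrays. All 8 fibroblast markers tested had positive differences and 3 of them passed, with medians from 0.18 to 1.35 and from -0.32 to 0.19. On invasive array 3, where Zfp36l2 and Zfp36l1 were lowest among the invasive arrays, both lists also had their lowest invasive median. Other lists were extreme on that array too. Among invasive arrays it had the lowest median of endothelial markers (0.50) and the highest of smooth muscle (-0.39) and cell cycle markers (2.31). The part of any of these lists in the values of the Zfp36 family was not tested. In dissected tissue, a change in the number of cells of a type and in RNA per cell cannot be told apart.

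**Figure D3:**
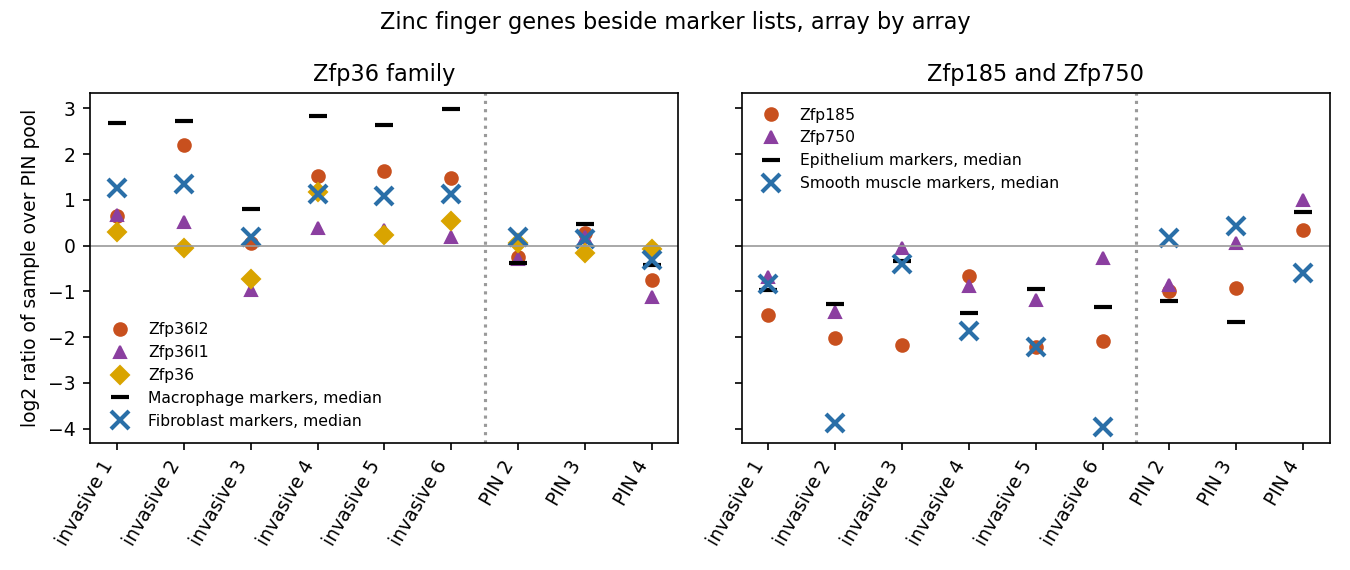
Log2 ratio of sample over PIN pool on each of 9 arrays for the Zfp36 family beside the medians of macrophage and fibroblast markers (left), and for Zfp185 and Zfp750 beside epithelial and smooth muscle markers (right). Invasive array 3 has the lowest Zfp36l2 value of the invasive arrays (0.06), and PIN array 4 has the highest Zfp185 (0.34) and Zfp750 (1.00) values of all arrays.

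For Zfp207, Zfp36 and Zfp36l1, the 100 bases before the RefSeq gene start (assembly GRCm38.p6) are printed to show upstream sequence of 1 gene that passed and 2 of the Zfp36 family that did not. Windows of Zfp106, Zfp185 and Zfp830 overlap a RefSeq gene and are not shown, and the promoter table used does not list Zfp612 or Zfp36l2. They lie at chr11:80383179-80383278 on the plus strand, chr7:28379229-28379328 on the minus strand and chr12:80113014-80113113 on the minus strand, and no RefSeq gene overlaps them. Capitals mark matches, on either strand, to a GC box, a CCAAT box, a TATA box or an E-box.
Zfp207: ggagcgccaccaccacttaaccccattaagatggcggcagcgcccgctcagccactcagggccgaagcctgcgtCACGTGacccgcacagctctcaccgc
Zfp36: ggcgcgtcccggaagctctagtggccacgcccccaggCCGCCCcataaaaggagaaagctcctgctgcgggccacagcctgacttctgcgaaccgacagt
Zfp36l1: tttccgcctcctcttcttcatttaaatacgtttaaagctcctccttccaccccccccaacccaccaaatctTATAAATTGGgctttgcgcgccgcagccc

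The Zfp207 window holds an E-box, spelled CACGTG, which 3.17% of 32851 mouse promoter windows of the same length contain. The Zfp36 window holds a GC box, spelled GGGCGG and read on the opposite strand, a motif in 24.7% of windows. In the Zfp36l1 window a TATA box, spelled TATAAA and found in 5.56% of windows, overlaps a CCAAT box on the opposite strand, in 18.9% of windows. These are matches of letters and carry no information on factor binding in these samples.

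None of the 13 Zbtb genes passed, against 5.64% of all genes. At an unadjusted p under 0.05, 3 (23.1%) did, 1 higher and 2 lower, against 15.0% of all genes. Array weights brought 3 past the adjusted threshold, when 20.1% of all genes passed. The methods' t-test, run here in its unequal-variance (Welch) form, brought 0, when 2.55% did. The differences had a median of 0.05 and ran from -0.71 to 1.07. Zbtb46, a factor of classical dendritic cells and endothelium, had the largest positive value. Its invasive values ran from 0.32 to 1.91 with a median of 0.55, and its PIN values from -0.66 to 0.46, and the groups overlapped (difference 1.07 ± 0.40 (SE), adjusted p = 0.228). Without invasive array 3 it passed (adjusted p = 0.148). Invasive arrays 2 and 6 were at 1.91 and 1.86, with the other four at or under 0.60. All 6 endothelial markers tested had positive differences and 2 of them passed. Their per-array medians ran from 0.50 to 1.49 on invasive and from -0.06 to 0.13 on PIN arrays, and the part of these markers was not tested.

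Zbtb42, a gene of skeletal muscle nuclei, had a difference of -0.71 ± 0.28 (SE) with an adjusted p of 0.252, and was -1.04 without PIN array 2 and -0.34 without PIN array 4. Its PIN values were -0.74, -0.17 and 0.67, and PIN array 2 lay among the invasive arrays, which ran from -1.20 to -0.40. Zbtb20, a BTB repressor first studied as a regulator of the fetal liver gene Afp, had a difference of -0.64 ± 0.28 (SE) with an adjusted p of 0.296. Invasive array 1 was at 0.22 while the other invasive arrays ran from -0.88 to -0.70, and without that array Zbtb20 passed (adjusted p = 0.0960). Its 3 clones all had negative differences, of -0.62, -0.41 and -0.90.

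Neither of the 2 Zscan genes passed by limma (5.64% of all genes did) or by the methods' t-test (2.55% did). An unadjusted p under 0.05 was found for 1 (15.0% of all genes), and 1 passed with array weights (20.1% of all genes). The groups of arrays did not overlap for either, as for 7.85% of all genes. Zscan25 was at -0.57 to -0.06 on invasive and 0.01 to 0.21 on PIN arrays (difference -0.45 ± 0.18 (SE), adjusted p = 0.266). Zscan12 was at -0.30 to 0.18 on invasive and -0.51 to -0.33 on PIN arrays (difference 0.37 ± 0.18 (SE), adjusted p = 0.350).

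Among the other Zfp genes, 5 of 107 (4.67%) passed, against 5.64% of all genes. Zfp334 came next by p, with invasive values from -0.06 to 0.81 and PIN values of 0.15, -0.88 and -0.70 (difference 0.79 ± 0.26 (SE), adjusted p = 0.167). Without invasive array 1 it passed (adjusted p = 0.139). Zfp518b had a difference of 0.62 ± 0.27 (SE) with an adjusted p of 0.295. Zfp750, a regulator of epidermal differentiation, had a difference of -0.82 ± 0.39 (SE) with an adjusted p of 0.348 and PIN values of -0.85, 0.07 and 1.00. The difference was -1.28 without PIN array 2 and -0.36 without PIN array 4. Its highest value and that of Zfp185 were both on PIN array 4. On that array the median of the epithelial markers was 0.74, against -1.21 and -1.66 on PIN arrays 2 and 3. On invasive arrays it ran from -1.47 to -0.33, and none of the 6 epithelial markers passed. Of 4 smooth muscle markers, 3 had negative differences and 1 a positive one, and 2 passed as lower. These markers had per-array medians from -3.96 to -0.39 on invasive and from -0.60 to 0.43 on PIN arrays. Their part in the results was not tested.

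Groups of arrays did not overlap for 8 zinc finger genes (6.40%), against 7.85% of all genes. The invasive arrays lay above the PIN arrays for 4 of them, against 4.86% of all genes, and below for 4, against 2.99%. Besides Zfp106, Zfp612, Zfp207, Zscan25 and Zscan12, these were Zfp710, Zfp62 and Zfp654, which were chosen for mention after their values were seen. Zfp710 was at 0.14 to 0.70 on invasive and -0.32 to 0.05 on PIN arrays, Zfp62 at 0.00 to 1.12 and -0.37 to -0.05, and Zfp654 at -1.12 to -0.43 and -0.37 to 0.10. Their adjusted p-values were 0.229, 0.315 and 0.243.

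Several clones were available for 31 of the 125 genes, with up to 4 clones a gene. The clones gave differences of 1 sign for 19 of the 31 genes and of both signs for 12. The range between clones of a gene had a median of 0.32 on the log2 scale. Zfp943 had the widest range, 1.24, with clones at -0.16 and 1.08, and is named after its values were seen. Tested alone over all 17207 clones, 3 zinc finger clones passed (of Zfp106, Zfp612 and Zfp943), against 2.16% of clones. All but Zfp207 of the 6 genes that passed rest on 1 clone each.

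**Figure D4:**
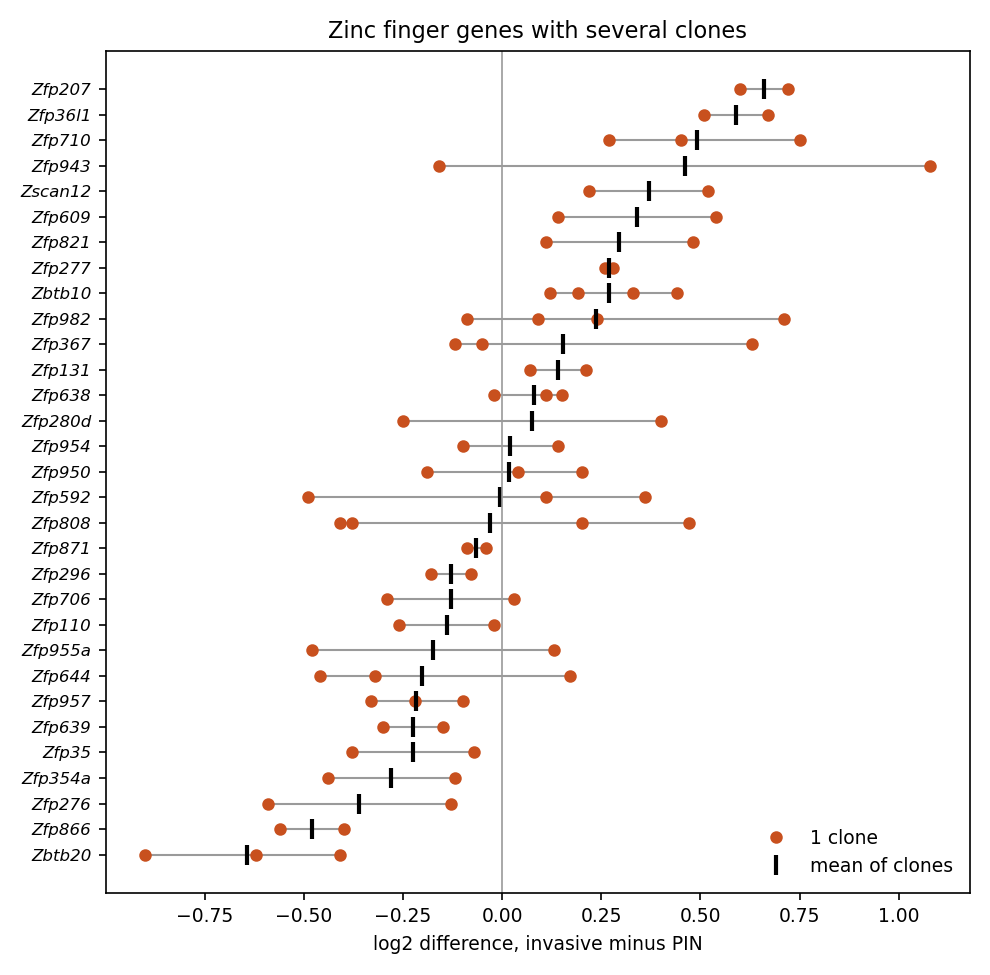
Log2 difference, invasive minus PIN (horizontal axis), for each clone (points) and the mean of clones (bars) of the 31 zinc finger genes with several clones. Clones of Zfp207 and Zbtb20 lie on 1 side of 0, whereas those of Zfp943 span 1.24.

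A list of 41 genes for co-repressors and related partners of zinc finger factors was read at the RNA level, and 34 were tested. None passed with limma, against 5.64% of all genes. An unadjusted p under 0.05 was found for 5 (14.7%, against 15.0% of all genes), the methods' t-test passed 1 (2.55% of all genes) and array weights passed 6 (20.1% of all genes). Their median difference was -0.03. Differences were positive for 8 and negative for 7 of the KRAB partners and heterochromatin genes (median 0.02), positive for 7 and negative for 4 of the BTB partners (median 0.05), and positive for 1 and negative for 7 of the genes of the NuRD chromatin-remodelling complex (median -0.27). Rbbp7, a histone-binding subunit, was at -1.08 to -0.33 on invasive and -0.27 to 0.18 on PIN arrays (difference -0.70 ± 0.23 (SE), adjusted p = 0.159). Mta3, another subunit, had a difference of -0.50 (adjusted p = 0.191). Kctd12, entered in the list under BTB partners without a test of that role, had a difference of 0.91 (adjusted p = 0.243). The maintenance methyltransferase Dnmt1 had one of 0.49 (adjusted p = 0.296). Without invasive array 3, Rbbp7, Mta3 and Kctd12 passed (adjusted p of 0.0726, 0.145 and 0.0310), and Rbbp7 also passed without invasive array 1 (adjusted p = 0.113).

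Zinc finger transcription factors with other names formed a list of 125 genes, of which 70 were tested. Of these, 2 (2.86%) passed, against 5.64% of all genes. Egr1, an immediate early factor, was higher in invasive stroma. Its invasive values ran from 0.22 to 2.15, and its PIN values were -1.92, -0.52 and -0.64, so that all invasive arrays lay above the PIN arrays (difference 2.30 ± 0.41 (SE), 4.91-fold, adjusted p = 0.0303). Gata2, a GATA factor of blood progenitors, endothelium and prostate epithelium, was lower. Its invasive values ran from -1.30 to -0.78 and its PIN values from -0.22 to 0.93 (difference -1.22 ± 0.26 (SE), 2.32-fold, adjusted p = 0.0480). The imprinted gene Peg3 had a difference of 0.69 (adjusted p = 0.175) and the metal-responsive factor Mtf1 one of 0.62 (adjusted p = 0.182). Neither Egr1 nor Gata2 passed without PIN array 2 (adjusted p = 0.158 for each), with the methods' t-test (adjusted p of 0.246 and 0.404), with the equal-variance t-test (0.177 for each) or with the replicate block (0.154 and 0.248). Without invasive array 3, Peg3 and Mtf1 passed (adjusted p of 0.135 and 0.145), and Peg3 also passed without PIN array 4 (adjusted p = 0.144).

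The arrays differed among themselves. PIN array 4 correlated with PIN arrays 2 and 3 at 0.176 and 0.189 over all clones, whereas those arrays correlated at 0.672. Over gene means the values were -0.257 and -0.312 for PIN array 4, and 0.562 between PIN arrays 2 and 3. Invasive array 3 correlated over all clones with the other invasive arrays at 0.256 to 0.560. With PIN arrays 2 and 3 it was at 0.529 and 0.436. Over gene means these values were 0.314 to 0.486, 0.369 and 0.278. Invasive array 1 correlated over all clones with the other invasive arrays at 0.400 to 0.581, and with PIN arrays 2 and 3 at 0.514 and 0.441. Over gene means its values were 0.429 to 0.600 with the invasive arrays, and 0.327 and 0.325 with PIN arrays 2 and 3. PIN array 4 and invasive array 3 are used under their labels. The medians of the zinc finger genes lay between -0.07 and 0.12 on the 9 arrays. With the methods' t-test, Zfp106 and Zfp207 passed (adjusted p of 0.0703 and 0.112), whereas Zfp612, Zfp830, Zfp185 and Zfp36l2 did not (0.323, 0.509, 0.416 and 0.236). Without PIN array 2, 0 of the 125 genes passed, without PIN array 3, 1 (Zfp830), without PIN array 4, 2 (Zfp106 and Zfp612), and without invasive array 3, 11. Leaving out invasive array 2 or 5 gave 2 genes each, array 4 or 6 gave 3 each, and array 1 gave 8. The shares of all genes that passed were 0.457%, 1.12% and 4.94% without PIN arrays 2, 3 and 4, and 6.53%, 2.74%, 11.1%, 2.48%, 2.70% and 3.31% without invasive arrays 1 to 6.

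**Figure D5:**
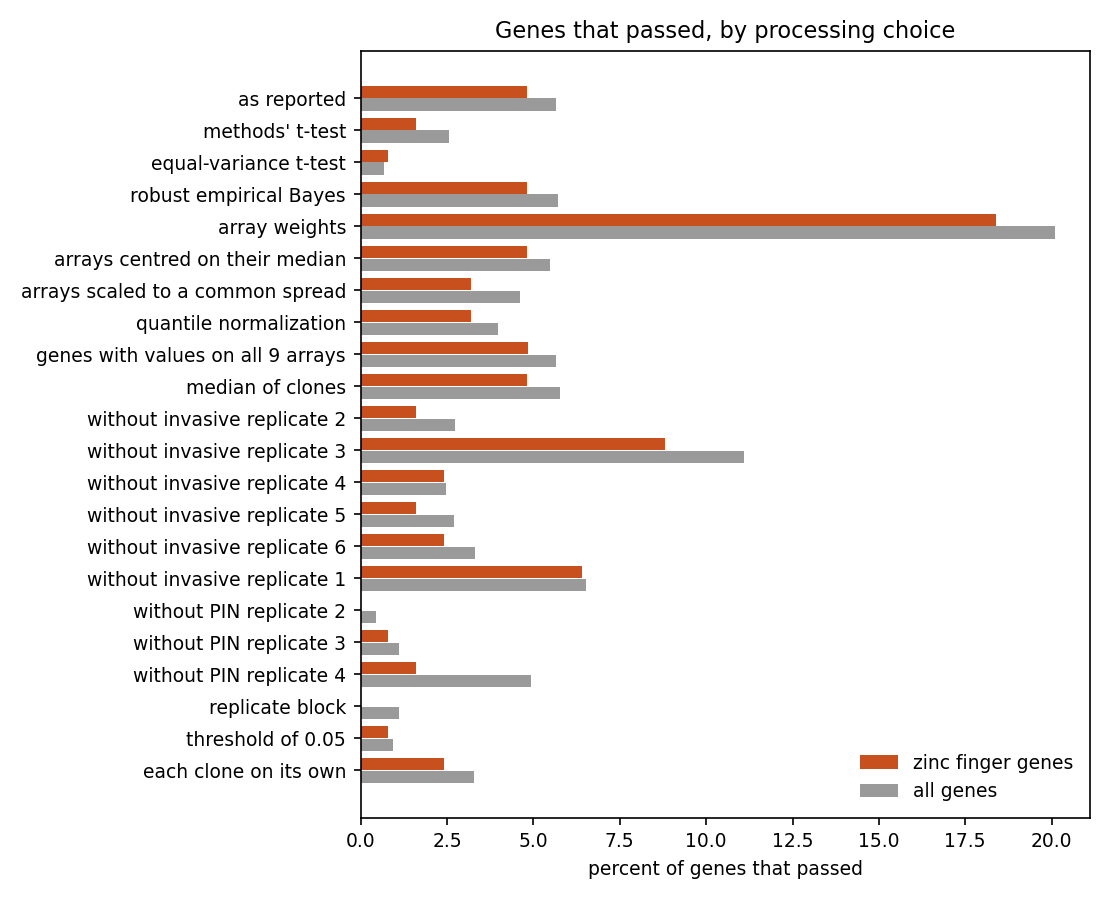
Percent of genes that passed (horizontal axis) under each processing choice for the zinc finger genes and for all genes tested. The zinc finger genes passed at 18.4% against 20.1% of all genes with array weights, and at 8.80% against 11.1% without invasive array 3.

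Neighbouring zinc finger genes were also examined, as many arose by local duplication. Of the 125 genes, 49 lay next to another Zfp, Zscan or Zbtb gene in the RefSeq order and 20 next to another gene of the group, forming 11 neighbouring pairs. Neither gene of any of the 11 pairs passed, against 5.64% of all genes tested. The differences of the 2 genes had 1 sign in 6 pairs and opposite signs in 4, with a difference of 0.00 in the last. Related zinc finger genes share finger sequences, and cross-hybridization of their clones was not tested. A further 19 clones were annotated to several genes including a zinc finger gene and were kept out of the gene values. None of these passed, against 2.16% of all clones, and the smallest adjusted p was 0.214. An unadjusted p under 0.05 was found for 4, against 15.0% of all genes. That share was not counted over all clones.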

How the data were processed

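Stromal RNA was amplified in 2 rounds and hybridized by the authors to spotted cDNA arrays with the PIN pool in Cy3 and each sample in Cy5, without dye swaps. Lowess normalization within print-tip groups, with no background subtracted, was done by the authors, whose deposited files give the log2 ratio of each sample to the pool. No clone was removed for low signal, since intensities were not analysed here, and precision is limited by the 9 arrays. The array of a further PIN mouse was not analysed here. Of 17664 clones, 12563 carried 1 symbol in the platform annotation, and 457 held no value. Clones of a symbol were averaged on each array, and a gene needed 4 invasive and 2 PIN values. The fit used lmFit and eBayes of limma 3.58.1 (R 4.3.3), two-sided, with Benjamini-Hochberg adjustment over 8106 genes, and was tested on simulated data. Each array is 1 mouse. Groups came from the labels, and replicate numbers did not pair the samples (r of deviations -0.085, -0.099 and -0.018 for equal numbers).

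Named genes were those that passed, the 5 largest differences in each direction, the 3 smallest p-values in each group, the Zfp36 family, and up to 4 genes of each other list. The members and lists were chosen with earlier results of these data known. Alternatives were t-tests, array weights, centring, scaling, quantile normalization, filters, clone summaries, a replicate block and omission of each array. The study's methods name a t-test but not its treatment of variances. What is called the methods' t-test here is the unequal-variance (Welch) form, and the equal-variance form was run beside it. Marker lists also covered neuroendocrine tumor cells, skeletal muscle (0 of 1 passed) and lymphocytes (of 7 markers, 0 could be tested). All 4 neuroendocrine markers tested had positive differences, with a median of 1.95, and 1 of them passed. Their per-array medians ran from 0.37 to 2.93 on invasive and from -0.20 to 0.20 on PIN arrays. The part of tumor cell RNA in the results was not tested. Promoter sequences and symbols came from RefSeq, GRCm38.p6, and all 125 symbols matched.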

Additional observations from a re-analysis of the deposited data

Results flagged for a closer look

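Among the 24 named genes, the values of the 6 invasive arrays were checked for an array far from the others, which chance gives in about 5% of groups, and 3 were found. Zfp106 on invasive array 1 was at -1.13 with the nearest array at -0.75, and leaving that array out kept its adjusted p under 0.15. Zbtb20 on invasive array 1 was at 0.22 with the nearest array at -0.70, and without that array Zbtb20 passed. Zfp36l1 on invasive array 3 was at -0.97 with the nearest array at 0.18.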

How the results depend on the processing

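The counts of zinc finger genes that passed, 2 higher and 4 lower, moved with several choices. The higher and lower counts were 1 and 1 with the methods' t-test, 0 and 1 with an equal-variance t-test, 7 and 16 with array weights, 0 and 1 at a threshold of 0.05, and 1 and 2 when each clone was tested alone. The shares of all genes that passed were 2.55%, 0.666%, 20.1%, 0.938% and 3.29% in these settings. Scaling to a common spread and quantile normalization each gave 2 lower genes, when 4.61% and 3.97% of all genes passed. For the other Zfp genes the count was 2, 1, 18, 3, 3, 1 and 3 in that order of choices (t-test, equal variance, weights, scaling, quantile, 0.05 and single clones). The Zfp36 family count was 0 with both t-tests, the 0.05 threshold and single clones. Array weights gave 3 Zbtb genes and 1 Zscan gene, 6 co-repressors and 9 other zinc finger factors. Co-repressors numbered 1 with the t-test, 2 with the median of clones and 1 with single clones, and other zinc finger factors 0 with both t-tests and 4 with scaling. The replicate block gave 0 higher, 0 lower, 0 other Zfp genes, 0 Zfp36 family genes and 0 other zinc finger factors, and 90 of all 8106 genes. The pairing of equal replicate numbers was not borne out by the data. Leaving out each array in turn gave 0 to 5 higher, 0 to 6 lower, 0 to 3 Zbtb, 0 to 0 Zscan, 0 to 6 other Zfp and 0 to 2 Zfp36 family genes, 0 to 4 co-repressors and 0 to 8 other factors. The median difference ran from -0.07 to -0.02. Zfp106 passed in 18 of 21 alternatives, Zfp612 in 15, Zfp207 in 10, Zfp830 and Zfp36l2 in 9 each, and Zfp185 in 7. No named gene reversed its direction in the 21 alternatives run. The causes of these changes were not tested.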
